A study of Mus musculus with 18 samples.

Results

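The genes described here are 9 mouse genes that encode secreted antagonists of Wnt and bone morphogenetic protein (BMP) signals: Sfrp1, Sfrp2, Frzb, Wif1, Dkk2, Dkk3, Grem1, Nog and Chrdl1. Each was read through the probe set that names it alone, and each of the 9 had exactly 1 such probe set among 19937 genes on the array. All 9 passed the filter on dim genes that left 15711 genes for testing.

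Total RNA of mouse embryonic fibroblasts of strain 129sv/ev was hybridised to 18 Affymetrix arrays, 3 in each of 6 groups. The groups were an Nfat5 knockout line (KO, line 5.1) in hypertonic and in isotonic medium, and a wild-type line (WT, line 5.4) in hypertonic medium with Torin1, in isotonic medium with Torin1, in hypertonic medium and in isotonic medium. The product of Nfat5 is a transcription factor that activates osmolyte genes under hypertonic stress, and Torin1, an inhibitor of the kinase mTOR, was given at 100 nM ahead of the medium. The titles give 500 for hypertonic and 300 for isotonic medium without a unit, the time in hypertonic medium is not given in the labels, and arrays within a group carry the numbers 1, 2 and 4. Each genotype was 1 line, so that genotype and line cannot be told apart. The labels do not say whether arrays of a group came from separate cultures, and p-values then measure only the spread between these arrays.

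Wnt proteins bind Frizzled receptors with LRP co-receptors and stabilise beta-catenin, and BMPs bind serine/threonine kinase receptors that phosphorylate Smad proteins. Cells restrain both signals outside the membrane with secreted proteins, some of which bind the ligand and others the receptor. Fibroblasts of different tissues make different sets of these antagonists, which help to set the borders of developing cartilage, limb and skin structures.

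Values are deposited signals on the log2 scale, so that 1 unit is a doubling, and changes are log2 differences with limma's standard error after ±, for 3 arrays in each group. A gene was called at a Benjamini-Hochberg adjusted p below 0.05 over all 15711 genes. Array medians lay between 6.96 and 7.13. Nfat5 itself ranged from 9.72 to 10.22 on the 6 KO arrays and from 9.94 to 10.77 on the 12 WT arrays, and the limma adjusted p of KO minus WT was 0.0503 in hypertonic medium (change of -0.44) and 0.367 in isotonic medium (-0.26). With the array number as a block these values were 0.00591 and 0.131. No source used here says whether this probe set lies in the deleted part, so it does not check the labels. The genotype label of 1 array titled KO, isotonic KO array 1, reads wild type. It was grouped by its title, and for each member the isotonic difference between the lines is also given without it. On this array Grem1 was at 7.16 and Sfrp2 at 12.23, within 1 log2 unit of the other isotonic KO arrays and at least 5 log2 units from every isotonic WT array. Summed signals of 12 fibroblast markers ranged from 16.06 to 16.24 on KO arrays and from 15.77 to 16.08 on WT arrays. They did not overlap within a medium, at 16.06 to 16.13 in hypertonic KO cells, against 15.87 to 15.99 in hypertonic WT cells. In isotonic medium they were 16.16 to 16.24 in KO cells, against 15.91 to 16.08 in WT cells. Of the 12, 5 were called higher in hypertonic and 4 in isotonic medium, and 0 lower.

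The members with the largest differences between the lines were Grem1 and Sfrp2, in opposite directions. Their RefSeq promoters are shown because these genes carry the main finding. Each runs 5′ to 3′ along the gene strand from 250 bases before the start to 50 bases after it, on assembly GRCm38.p6, and capitals mark a match to a searched motif.
Grem1 promoter, chr2:113758599-113758898, minus strand: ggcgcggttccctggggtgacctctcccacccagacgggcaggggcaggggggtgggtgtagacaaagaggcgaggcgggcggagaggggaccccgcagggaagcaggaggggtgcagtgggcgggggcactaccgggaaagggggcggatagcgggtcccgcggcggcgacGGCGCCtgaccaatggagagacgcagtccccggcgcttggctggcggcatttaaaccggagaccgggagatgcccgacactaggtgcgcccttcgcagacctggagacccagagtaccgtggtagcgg
Sfrp2 promoter, chr3:83766071-83766370, plus strand: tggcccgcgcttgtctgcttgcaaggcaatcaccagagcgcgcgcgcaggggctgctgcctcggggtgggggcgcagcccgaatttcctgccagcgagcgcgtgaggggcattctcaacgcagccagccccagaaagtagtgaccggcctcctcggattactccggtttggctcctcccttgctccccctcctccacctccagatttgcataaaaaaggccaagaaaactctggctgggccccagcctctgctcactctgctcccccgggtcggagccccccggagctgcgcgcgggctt
Both were rich in G and C, with 70.7% for Grem1 and 66.0% for Sfrp2. Promoters of 5 of the 9 members were in the table used, and 4 motifs were searched in them on both strands. TGGAAA, the core bound by NFAT proteins, was in none of the 5 windows and in 21.4% of 32851 promoters. CTTTGA, the core bound by TCF and LEF proteins, was in the Frzb window alone among the 5, as its reverse complement from position -95, and in 16.0% of all promoters. GGCGCC, a palindrome associated with BMP-activated Smads, was in the Grem1 window from position -78 and in 11.9% of all. TATAAA was in the Dkk2 window from position -32, as the reverse complement in the Wif1 window from position -232, and in 13.6% of all. The Sfrp2 window held none of the 4 motifs. The motifs do not overlap one another in these windows.

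The question put to the lines was which antagonists the KO and the WT fibroblasts expressed differently in each medium. KO cells had 5 of the 9 genes higher (Sfrp2, Dkk3, Sfrp1, Frzb and Wif1) and 2 lower (Grem1 and Chrdl1) than WT cells, in hypertonic and in isotonic medium alike. Of all tested genes 13.8% were higher and 18% lower in hypertonic medium, and 7.78% and 6.84% in isotonic medium. In both directions together 31.9% of all genes were called in hypertonic medium and 14.6% in isotonic medium. Nog and Dkk2 did not pass the test in either medium. Called changes of at least 2-fold were found for 6 of the 9 members in each medium, against 7.73% of all genes in hypertonic and 5.49% in isotonic medium. The 6 include Frzb, whose WT signals lay below the filter level, and 5 remain besides it. The median change of the 9 was 0.62 in hypertonic and 0.65 in isotonic medium, beside medians of 0.04 and 0.02 over all genes. The arrays of the compared groups did not overlap for 7 of the 9 members in each medium, against 44.8% of all genes in hypertonic and 31.3% in isotonic medium. The same 7 members did not overlap when the 6 KO arrays were set against all 12 WT arrays, against 8.52% of all genes. Frzb, which passed the filter only through the KO groups, is among the 5 higher genes and the 7 of each of these counts. The members were chosen with earlier results of these data known, so an excess over the shares of all genes is no test. Without isotonic KO array 1, again 7 of 9 were called in isotonic medium. Where that array was instead counted as WT, as its genotype label reads, no gene of the array was called in isotonic medium.

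**Figure D1:**
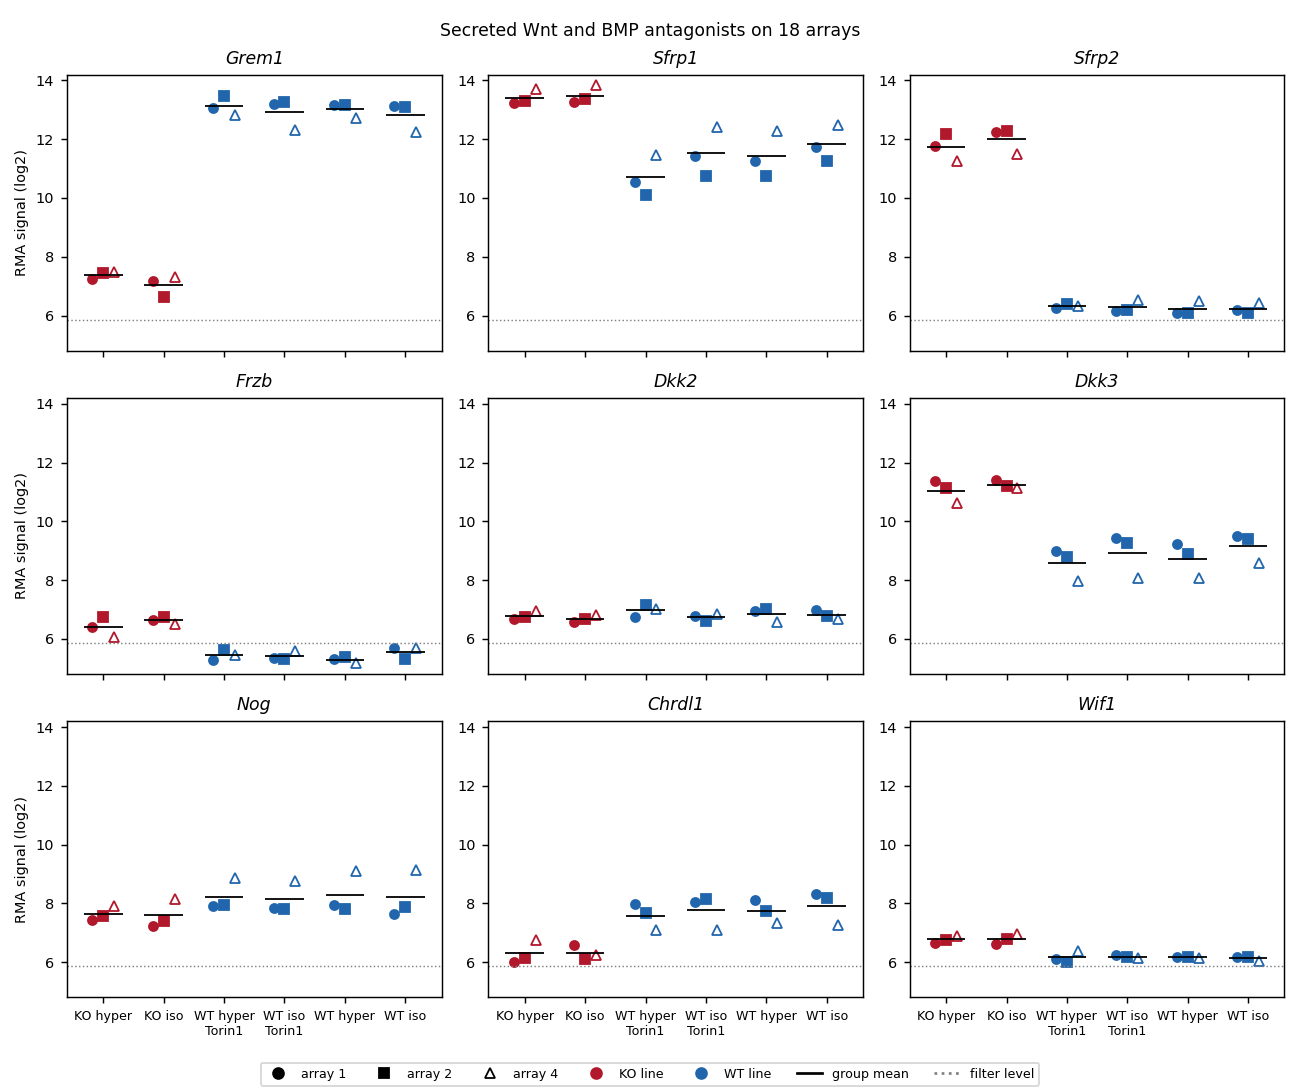
Signal of each of the 9 genes on all 18 arrays (vertical axis, RMA signal, log2), with KO groups in red at the left and WT groups in blue at the right, marker shapes for the array numbers 1, 2 and 4, bars for group means and a dotted line at the filter level of 5.86. Grem1 lies between 6.64 and 7.47 on KO arrays and between 12.24 and 13.48 on WT arrays, and Sfrp2 shows the reverse order.

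Among the Wnt antagonists, the secreted frizzled-related proteins carry a domain like that of the Frizzled receptors and bind Wnt ligands. Sfrp2 (chromosome 3) had signals of 11.76, 12.17 and 11.25 on arrays 1, 2 and 4 of hypertonic KO cells, against 6.08, 6.09 and 6.48 in hypertonic WT cells. In isotonic medium its signals were 12.23, 12.28 and 11.48 in KO cells, against 6.18, 6.09 and 6.41 in WT cells. WT cells with Torin1 had 6.24, 6.39 and 6.33 in hypertonic medium and 6.17, 6.19 and 6.53 in isotonic medium. Every KO array lay far above every WT array, and the 4 WT groups overlapped one another. KO minus WT was 5.51 ± 0.23 in hypertonic medium (45.6-fold, limma adjusted p = 8.89e-11) and 5.77 ± 0.23 in isotonic medium (54.5-fold, 5e-11). Without isotonic KO array 1 the isotonic difference was 5.65 (limma adjusted p = 1.38e-09). The WT group means of Sfrp2, 6.22 to 6.32, lay below the 50th percentile of all values (7.06), so these folds speak for the signal only.

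Sfrp1 (chromosome 8) was higher in the KO line too, from a WT level that was itself well above the filter. Its signals were 13.23, 13.29 and 13.70 in hypertonic KO cells, against 11.26, 10.75 and 12.27 in hypertonic WT cells. In isotonic medium they were 13.25, 13.36 and 13.83 in KO cells, against 11.73, 11.26 and 12.48 in WT cells. WT cells with Torin1 had 10.54, 10.11 and 11.46 in hypertonic and 11.42, 10.76 and 12.41 in isotonic medium. All KO arrays lay above all WT arrays, and array 4 was the highest in every group. KO minus WT was 1.98 ± 0.45 in hypertonic medium (3.95-fold, limma adjusted p = 0.00328) and 1.66 ± 0.45 in isotonic medium (3.16-fold, 0.0203). Leaving out isotonic KO array 1 gave an isotonic difference of 1.77 (limma adjusted p = 0.0402). The isotonic call was lost when isotonic WT array 1 (limma adjusted p = 0.0631), isotonic WT array 2 (0.0981) or isotonic KO array 4 (0.0746) was left out. Within the numbers 1, 2 and 4 the difference was 1.97, 2.54 and 1.44 in hypertonic medium and 1.52, 2.09 and 1.36 in isotonic medium.

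Frzb (chromosome 2), a frizzled-related protein first described in cartilage, had signals of 6.42, 6.76 and 6.06 in hypertonic KO cells, against 5.30, 5.39 and 5.18 in hypertonic WT cells. Isotonic KO cells had 6.63, 6.76 and 6.50, against 5.70, 5.30 and 5.69 in isotonic WT cells. With Torin1, WT cells had 5.27, 5.63 and 5.46 in hypertonic and 5.35, 5.32 and 5.59 in isotonic medium. Frzb passed the filter only through the KO groups, and the means of all 4 WT groups lay below the filter level of 5.86. The difference, KO minus WT, was 1.12 ± 0.16 in hypertonic medium (limma adjusted p = 8.34e-05) and 1.07 ± 0.16 in isotonic medium (0.000206). With no filter on dim genes Frzb was called in both media as well. Without isotonic KO array 1 the isotonic difference was 1.07 (limma adjusted p = 0.00133).

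Wif1 (chromosome 10), Wnt inhibitory factor, binds Wnt ligands through a domain of its own. Its signals were 6.67, 6.77 and 6.89 in hypertonic KO cells, against 6.16, 6.18 and 6.14 in hypertonic WT cells. In isotonic medium they were 6.61, 6.79 and 6.95 in KO cells, against 6.16, 6.17 and 6.05 in WT cells. Under Torin1 the WT signals were 6.12, 6.02 and 6.38 in hypertonic and 6.24, 6.17 and 6.13 in isotonic medium. The differences between the lines were small, and no KO array reached down to a WT array. KO minus WT was 0.62 ± 0.10 in hypertonic medium (1.53-fold, limma adjusted p = 0.000351) and 0.65 ± 0.10 in isotonic medium (1.57-fold, 0.000366). It was 0.74 in isotonic medium without isotonic KO array 1 (limma adjusted p = 0.000339). The highest group mean of Wif1 was 6.78, below the 50th percentile of all values (7.06), so these folds speak for the signal only.

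The Dickkopf proteins act at the receptor: Dkk2 binds the LRP co-receptors, whereas Dkk3 is a divergent member whose role in Wnt signalling is less settled. Dkk3 (chromosome 7) had signals of 11.37, 11.13 and 10.62 in hypertonic KO cells, against 9.23, 8.90 and 8.06 in hypertonic WT cells. Isotonic KO cells had 11.41, 11.19 and 11.13, against 9.51, 9.39 and 8.57 in isotonic WT cells. Torin1-treated WT cells had 8.99, 8.78 and 7.97 in hypertonic and 9.43, 9.27 and 8.08 in isotonic medium. All KO arrays were above all WT arrays, and array 4 was the lowest in every group. As KO minus WT this was 2.31 ± 0.38 in hypertonic medium (4.94-fold, limma adjusted p = 0.000285) and 2.08 ± 0.38 in isotonic medium (4.24-fold, 0.00117). Leaving out isotonic KO array 1 gave an isotonic difference of 2.00 (limma adjusted p = 0.00712).

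Dkk2 (chromosome 3) had signals of 6.69, 6.74 and 6.94 in hypertonic KO cells, against 6.95, 7.03 and 6.56 in hypertonic WT cells. In isotonic medium they were 6.56, 6.66 and 6.81 in KO cells, against 6.97, 6.78 and 6.67 in WT cells. With Torin1, WT cells had 6.76, 7.16 and 7.02 in hypertonic and 6.79, 6.62 and 6.86 in isotonic medium. The lines overlapped in both media. KO minus WT was -0.06 in hypertonic medium (95% interval -0.35 to 0.23, limma adjusted p = 0.768). In isotonic medium it was -0.13 (95% interval -0.42 to 0.16, limma adjusted p = 0.625). A 2-fold difference of the array signal lies outside both intervals. Leaving out isotonic KO array 1 gave -0.07 in isotonic medium (limma adjusted p = 0.861). Over the 6 groups the mean of Dkk2 was between 6.68 and 6.98, below the 50th percentile of all values (7.06). At so low a signal a difference in RNA could be missed, so the intervals speak for the signal only. With the filter at that percentile Dkk2, Frzb and Wif1 were not among the genes tested.

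**Figure D2:**
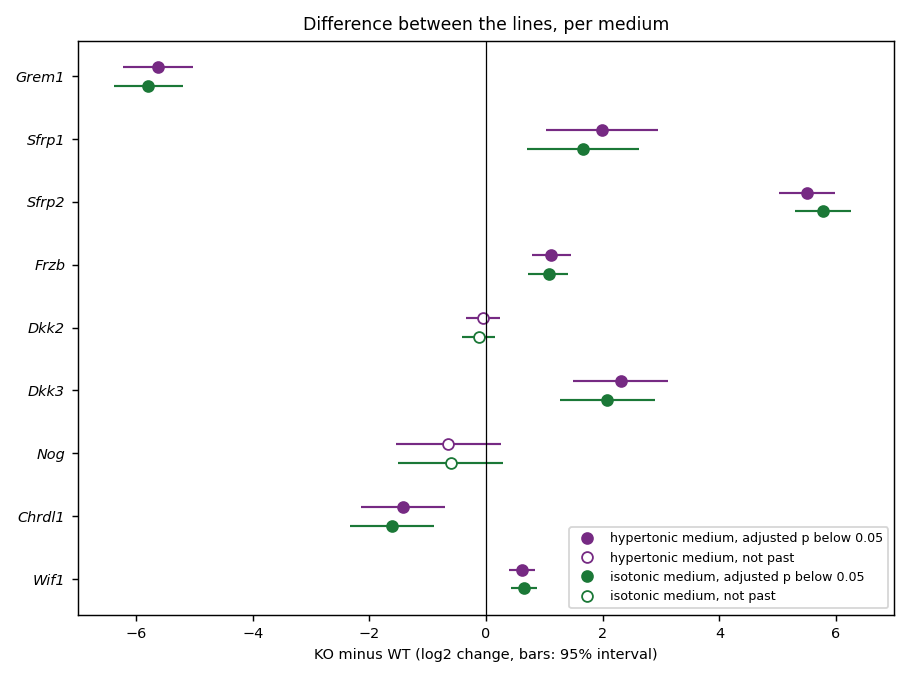
KO minus WT for each of the 9 genes (horizontal axis, log2 change, bars for the 95% interval), in hypertonic medium (purple) and isotonic medium (green), with filled points for a limma adjusted p below 0.05. Grem1 and Sfrp2 lie near -6 and 6, the 2 media give overlapping intervals for every gene, and Dkk2 and Nog are the genes with open points.

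Grem1, Nog and Chrdl1 encode proteins that bind BMP ligands and keep them from their receptors. Grem1 (chromosome 2) had signals of 7.25, 7.46 and 7.47 in hypertonic KO cells, against 13.17, 13.18 and 12.71 in hypertonic WT cells. Isotonic KO cells had 7.16, 6.64 and 7.31, against 13.14, 13.11 and 12.24 in isotonic WT cells. WT cells with Torin1 had 13.07, 13.48 and 12.84 in hypertonic medium and 13.21, 13.27 and 12.32 in isotonic medium. All 12 WT arrays lay far above the 6 KO arrays. KO minus WT was -5.63 ± 0.28 in hypertonic medium (49.5-fold lower, limma adjusted p = 1.02e-09) and -5.79 ± 0.28 in isotonic medium (55.3-fold lower, 7.69e-10). Without isotonic KO array 1 the isotonic difference was -5.85 (limma adjusted p = 1.68e-08).

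Chrdl1 (chromosome X), chordin-like 1, was lower in the KO line as well. Its signals were 6.0, 6.15 and 6.76 in hypertonic KO cells, against 8.12, 7.75 and 7.32 in hypertonic WT cells. In isotonic medium they were 6.57, 6.12 and 6.25 in KO cells, against 8.33, 8.18 and 7.27 in WT cells. Under Torin1 the WT signals were 7.98, 7.66 and 7.08 in hypertonic and 8.05, 8.14 and 7.10 in isotonic medium. The arrays did not overlap in either medium, and within the numbers the gap was narrowest at number 4. As KO minus WT this was -1.43 ± 0.34 in hypertonic medium (2.69-fold lower, limma adjusted p = 0.00413) and -1.62 ± 0.34 in isotonic medium (3.07-fold lower, 0.00328). It was -1.74 in isotonic medium without isotonic KO array 1 (limma adjusted p = 0.00707).

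Nog (chromosome 11), noggin, had signals of 7.43, 7.57 and 7.92 in hypertonic KO cells, against 7.95, 7.81 and 9.09 in hypertonic WT cells. Isotonic KO cells had 7.23, 7.41 and 8.15, against 7.63, 7.87 and 9.12 in isotonic WT cells. Torin1-treated WT cells had 7.91, 7.93 and 8.85 in hypertonic and 7.83, 7.82 and 8.76 in isotonic medium. The lines overlapped, array 4 was the highest of each group, and within each number the KO array was the lower one. The difference, KO minus WT, was -0.65 ± 0.42 in hypertonic medium (limma adjusted p = 0.266) and -0.61 ± 0.42 in isotonic medium (0.414). With the array number as a block the limma adjusted p was 0.00368 and 0.00934, which brought the members called to 8 of 9 in each medium, against 39.1% and 20.9% of all genes. Leaving out isotonic KO array 1 gave an isotonic difference of -0.43 (limma adjusted p = 0.681). Without all arrays of number 4 the differences of Nog were -0.38 (limma adjusted p = 0.017) and -0.43 (0.0142).

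The 2 comparisons of the lines share no arrays but set the same KO line against the same WT line. The change of each member had the same sign in both, which is therefore no independent check. The difference between the hypertonic effect in KO and in WT cells was not past the test for any of the 9 members, against 9.5% of all genes called. It ranged from -0.26 for Sfrp2 (95% interval -0.94 to 0.42) to 0.32 for Sfrp1 (-1.04 to 1.68), and 0 of the 9 had an unadjusted limma p below 0.05, against 3498 of 15711 genes. The range was -0.22 to 0.32 without isotonic KO array 1, and 0 of the 9 had an adjusted p below 0.05.

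The next question was whether hypertonic medium or Torin1 moved these genes within a line. None of the 9 members passed the test in any of the 5 comparisons within a line, and the arrays of the compared groups overlapped for all of them. In hypertonic against isotonic KO cells 30.1% of all genes were called and 45.6% had arrays without overlap, and the 9 members changed by -0.27 to 0.35, or by -0.22 to 0.42 without isotonic KO array 1. In hypertonic against isotonic WT cells with Torin1, 3.37% of all genes were called and 20.2% did not overlap, and the members changed by -0.83 to 0.22. In hypertonic against isotonic WT cells these shares were 8.24% and 25.3%, and the members changed by -0.42 to 0.19. For Torin1 against no Torin1 in hypertonic WT cells the shares were 0.115% and 15.6%, with members between -0.72 and 0.16. In isotonic WT cells 0% were called and 6.01% did not overlap, with members between -0.29 and 0.10. In the limma fit without a block for the array number, 0 of the 9 had an unadjusted p below 0.05 in each of the 5 comparisons. Over all genes the counts were 6153, 2604, 3565, 1907 and 470, in the order just given. That fit leaves shifts shared by arrays of the same number in the spread.

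**Figure D3:**
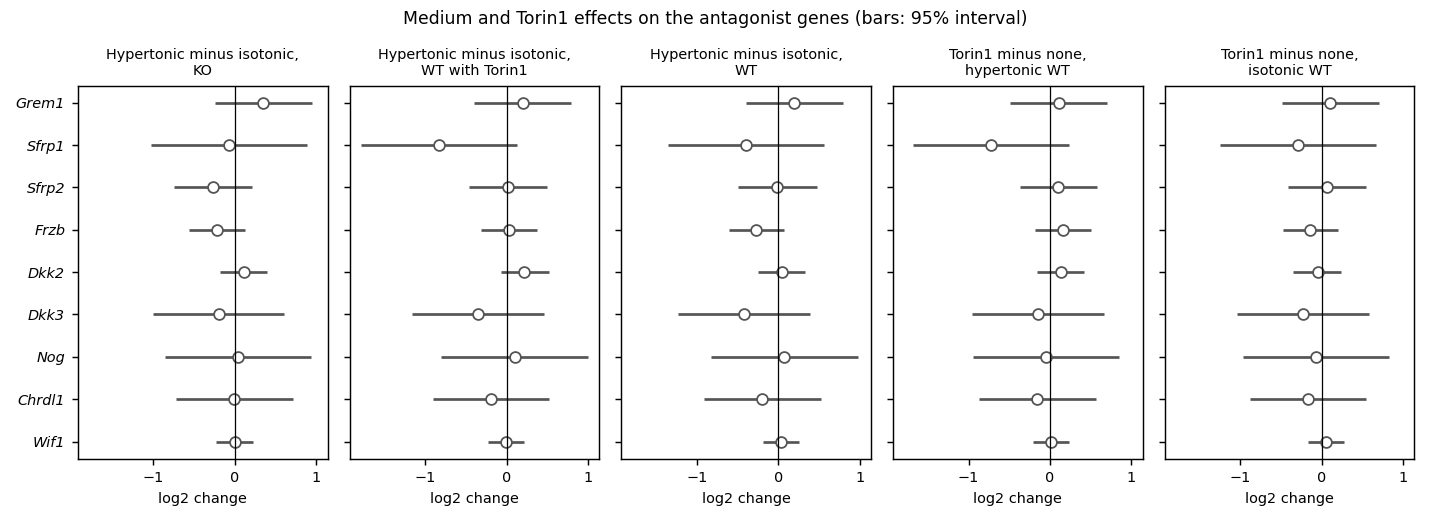
Change of each of the 9 genes in the 5 comparisons within a line (horizontal axis, log2 change, bars for the 95% interval). All points are open, which marks a limma adjusted p above the threshold, and every interval crosses 0.

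Sfrp1 had the largest of these changes. In WT cells with Torin1 it had 10.54, 10.11 and 11.46 in hypertonic medium, against 11.42, 10.76 and 12.41 in isotonic medium. The ranges overlapped, but within each number the hypertonic array was lower, with hypertonic minus isotonic at -0.88, -0.65 and -0.95 for numbers 1, 2 and 4. The change was -0.83 (95% interval -1.79 to 0.13, limma adjusted p = 0.40). With the array number as a block the limma adjusted p was 0.0185, in a fit that called 7.86% of all genes, and without all arrays of number 4 the change was -0.77 (0.046). In hypertonic WT cells Torin1 minus no Torin1 was -0.72, -0.64 and -0.81 for Sfrp1 within the numbers, and the limma adjusted p with the block was 0.0707. Dkk3 was lower in hypertonic medium within each number too. In WT cells its hypertonic minus isotonic values were -0.28, -0.49 and -0.51 (limma adjusted p with the block 0.0991). They were -0.43, -0.5 and -0.11 in WT cells with Torin1 (0.232), and -0.04, -0.06 and -0.51 in KO cells (0.379). Over the 5 comparisons the 95% intervals of the 9 members ran from -1.79 to 1.00. For Grem1 in KO cells hypertonic minus isotonic was 0.35, which passed the limma test without all arrays of number 4 (0.45, adjusted p = 0.0439). The difference of the hypertonic effect with and without Torin1 ranged from -0.43 to 0.30 over the 9, and 0 genes of the array were called there (317 of 15711 at an unadjusted limma p below 0.05).

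Array number moved several members in the same direction in both lines. Array 4 was above arrays 1 and 2 in 6 of 6 groups for Sfrp1, by 0.44 to 1.32 against their mean, and for Nog, by 0.42 to 1.37. It was below both in 6 of 6 groups for Dkk3, with differences from their mean of -1.27 to -0.16. Grem1 was below both on array 4 in the 4 WT groups and above both in the 2 KO groups. Chrdl1 was below both in the 4 WT groups, above both in hypertonic KO cells and between them in isotonic KO cells. What the numbers stand for is not given in the labels.

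The genes most like each member over the 18 arrays were found as those with the smallest root mean square (RMS) difference after centring each gene on its mean. Because they were picked on these same arrays, a like difference between the lines follows from the choice and is no separate result. For Grem1 they were Pax8 (0.39) and Tfap2a (0.63), beside an RMS spread of 2.74 for Grem1 itself. Pax8, a paired-box transcription factor, averaged 7.16 in hypertonic KO cells, against 12.59 in hypertonic WT cells. For Sfrp2 they were Prelp and Dpep1 (0.38 each, spread 2.65), and Prelp, a leucine-rich matrix proteoglycan, averaged 12.50 in hypertonic KO cells, against 7.17 in hypertonic WT cells. Dkk3 was closest to Col6a2 (0.22) and Il1rn (0.32), with a spread of 1.18, and Sfrp1 to Adamtsl3 (0.34) and Nid2 (0.36), with a spread of 1.15. Chrdl1 was closest to Slc22a23 and Arhgef5 (0.28 each, spread 0.78), and Nog to Unc5b (0.21) and Trpm3 (0.22), with a spread of 0.55. Frzb was closest to Bckdhb and Gramd1c (0.17 each, spread 0.55), and Wif1 to Col20a1 and Rap2a (0.13 each, spread 0.31). For Dkk2, which hardly varied (spread 0.17), they were Upk3bl (0.07) and Onecut1 (0.10).

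The rest of both pathways was read from 11 lists of genes. Among other secreted antagonists, 2 rose and 1 fell of 17 tested in KO against WT cells, in each medium. That is 17.6% in each, beside 31.9% of all genes in hypertonic and 14.6% in isotonic medium. Without all arrays of number 4 it was 4 and 2 of 16 in each, where 40.2% and 24.2% of all genes were called. Sfrp4, a relative of Sfrp1 and Sfrp2, rose by 2.69 ± 0.38 in hypertonic medium (limma adjusted p = 8.02e-05) and by 2.70 ± 0.38 in isotonic medium (0.000118). Fstl3, which binds activin, rose by 1.66 ± 0.12 (limma adjusted p = 1.17e-07) and 1.12 ± 0.12 (8.34e-06). Nbl1, a BMP antagonist of the same family as Grem1, changed by -1.56 ± 0.23 (limma adjusted p = 0.000108) and -1.66 ± 0.23 (8.91e-05).

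Of the 61 tested Wnt ligands, receptors, R-spondins, transducers and targets, 16 rose and 5 fell in KO against WT cells in hypertonic medium, and 12 rose and 4 fell in isotonic medium. That is 34.4% and 26.2%, beside the 31.9% and 14.6% of all genes given above. Lgr5, a receptor for R-spondins, rose by 4.22 ± 0.23 in hypertonic medium (limma adjusted p = 2.73e-09) and 3.15 ± 0.23 in isotonic medium (6.99e-08). Ror1, a receptor for non-canonical Wnts, rose by 1.75 ± 0.14 (3.09e-07) and 2.50 ± 0.14 (5.36e-09). Fzd1, a Frizzled receptor, rose by 1.02 ± 0.16 and 1.60 ± 0.16, and the ligand Wnt11 by 1.13 ± 0.23 and 1.73 ± 0.23. The 4 that fell in isotonic medium were Wnt16 (-1.73), Fzd6 (-1.11), Lgr4 (-1) and Wnt9a (-0.48). In hypertonic medium Wnt16 (-1.31) and Rnf43 (-0.91) fell, beside 3 targets of beta-catenin given below. Nkd1, a feedback target of Wnt signals, rose by 1.17 ± 0.26 and 1.54 ± 0.26, with a hypertonic limma adjusted p of 0.0584 where isotonic KO array 1 was counted as WT. Axin2, another such target, rose by 1.03 ± 0.20 in isotonic medium (limma adjusted p = 0.00213) and was at 0.52 ± 0.20 in hypertonic medium (0.0612). Of 10 tested targets of beta-catenin, 1 rose and 3 fell in hypertonic medium. The 3 were Lef1 (-1.11), Apcdd1 (-0.93) and Ccn4 (-0.85). In isotonic medium 3 of the 10 rose and 0 fell. The isotonic count of 16 became 10 or 9 when isotonic WT array 1 or 2 was dropped, and 11 or 8 when isotonic KO array 1 or 2 was dropped. The isotonic share of all genes was 11% without isotonic KO array 1. Without all arrays of number 4 the isotonic counts were 19 higher and 10 lower of 62. With the array number as a block 14 rose and 10 fell in isotonic medium and 19 rose and 7 fell in hypertonic medium, where 20.9% and 39.1% of all genes were called, and Axin2 passed in hypertonic medium (limma adjusted p = 0.0376).

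Of the 37 tested BMP ligands, receptors, Smads and targets, 7 rose and 6 fell in hypertonic medium, and 2 rose and 8 fell in isotonic medium, or 35.1% and 27%. Without isotonic KO array 1 the isotonic counts were 1 and 6, so that fewer rose than fell there too. Without all arrays of number 4 the counts in isotonic medium were 10 higher and 10 lower, and in hypertonic medium 12 and 8. With the array number as a block they were 5 higher and 10 lower in isotonic medium, and 10 and 8 in hypertonic medium. Eng, endoglin, a co-receptor, changed by -2.16 ± 0.36 in hypertonic medium (limma adjusted p = 0.000298) and -2.15 ± 0.36 in isotonic medium (0.000529). The ligand Bmp2 changed by -0.79 ± 0.19 (0.00402) and -2.04 ± 0.19 (1.18e-06), with a hypertonic value of 0.146 where isotonic KO array 1 was counted as WT. Bmp7 changed by -0.80 ± 0.14 and -0.82 ± 0.14. The receptor Bmpr1b changed by -0.77 ± 0.19 and -0.95 ± 0.19. In hypertonic medium the receptors Acvr2a (0.91) and Acvr1 (0.38) rose. Bambi, a pseudoreceptor induced by BMP, rose by 1.00 ± 0.16 (limma adjusted p = 0.000227) and 1.39 ± 0.16 (1.43e-05). Of 11 tested BMP targets, 3 rose and 1 fell (Msx2, -1.34) in hypertonic medium. Those that rose were Bambi, Atoh8 (1.56) and Msx1 (0.81), and Atoh8 kept its call under 16 of 28 alternatives. In isotonic medium 2 rose and 1 fell (Smad7, -1.13). Centring each array on its median put the all-gene median of the hypertonic comparison at 0.18, against 0.04 before. It brought the counts there to 27 higher and 5 lower of 61 Wnt genes and 15 higher and 6 lower of 37 BMP genes, where 30.6% of all genes were higher and 13.3% lower. The 7 called members kept their sign and call under it. When isotonic KO array 1 was left out, the 14 genes of these lists given here with an isotonic change and its standard error kept its sign and call. Their highest limma adjusted p was 0.0124 (Bmpr1b), and their largest shift was 0.32 (Eng). Of the other isotonic changes given, that of Wnt16 kept its call without this array. Those of Fzd6 (limma adjusted p = 0.081), Lgr4 (0.0537), Wnt9a (0.0863) and Smad7 (0.0507) did not.

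**Figure D4:**
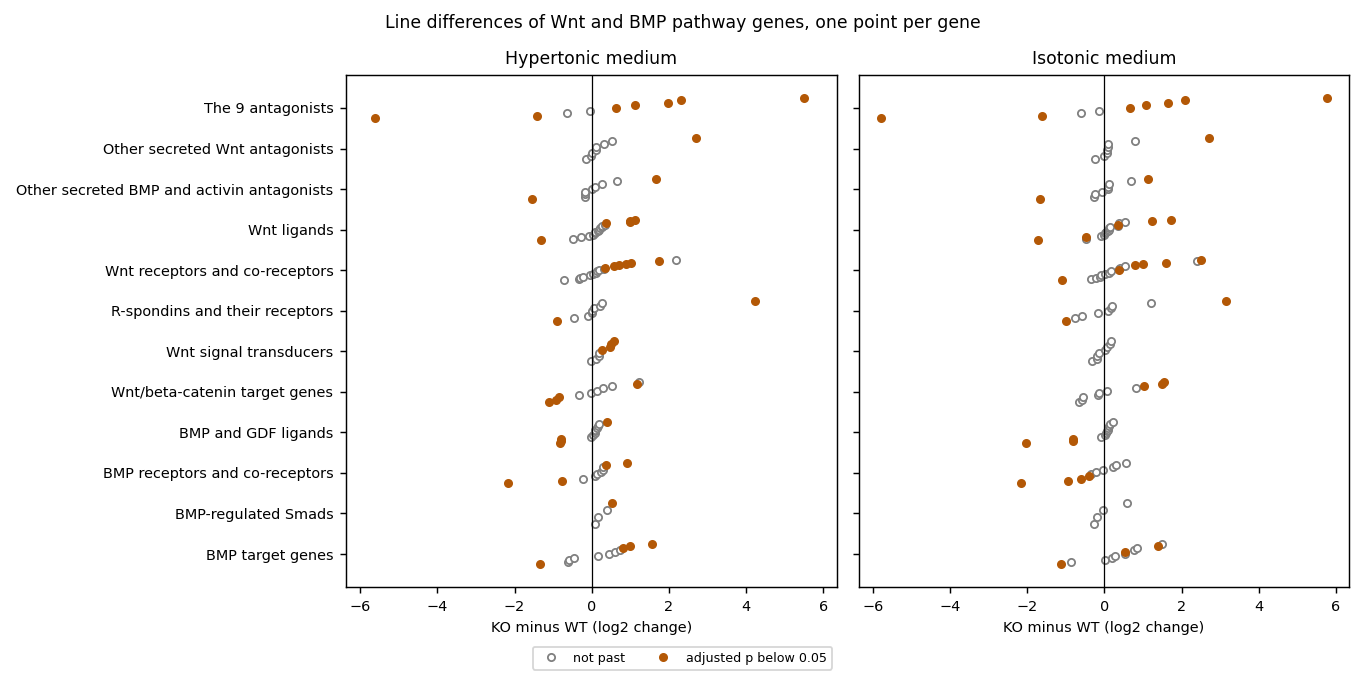
KO minus WT (horizontal axis, log2 change) of the 9 antagonists and of the 11 lists of Wnt and BMP pathway genes, one point per gene, in hypertonic medium (left) and isotonic medium (right). Filled points passed a limma adjusted p below 0.05, and Lgr5 lies furthest right among the listed genes.

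Markers of other cell types moved with the lines in part. Summed signals of 4 adipocyte markers ranged from 10.98 to 12.02 on KO arrays and from 8.57 to 9.08 on WT arrays, with 3 of the 4 higher in both media. Those of 4 cartilage markers ranged from 11.32 to 12.60 on KO arrays and from 9.92 to 11.31 on WT arrays, with 1 of 4 higher in each medium. Endothelial markers ranged from 8.16 to 9.57 on KO arrays and from 7.77 to 8.15 on WT arrays, with 1 of 3 tested higher in each medium. Epithelial markers ranged from 9.30 to 9.76 on KO arrays and from 8.94 to 9.22 on WT arrays, with 1 of 5 tested higher in each medium. Such a sum can rest on 1 gene. Of the osteoblast markers 2 were read, whose sums ranged from 6.73 to 6.94 in hypertonic KO cells, against 6.36 to 6.57 in hypertonic WT cells. In isotonic medium they ranged from 7.54 to 8.07 in KO cells, against 6.41 to 6.54 in WT cells, and the 1 tested marker was higher there. Leukocyte, skeletal muscle and neural sums overlapped between the lines in each medium. The part of these cell types in the differences of the antagonists was not tested. In bulk RNA a smaller share of cells that express a gene and a lower level per cell cannot be told apart.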

How the data were processed

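The authors deposited RMA values on the log2 scale for 34760 probe sets on 18 arrays, with R 2.11.1 named in the submitters' processing notes. For these values no source used here names a genome build, and GRCm38.p6 is the assembly of the promoters only. The values were used without further normalization. Probe sets were named through the platform annotation, 21640 with 1 gene, 1321 with several and 11799 with none, and for 954 genes with several probe sets the one with the highest mean was taken. Genes were tested if their highest group mean exceeded the 30th percentile of all values (5.86).

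limma 3.58.1 in R 4.3.3 was fitted to all 18 arrays with 1 mean for each group (12 residual degrees of freedom), with 9 contrasts and the Benjamini-Hochberg adjustment within each. The members and gene lists were chosen with earlier results of these data known. Named were all 9 members, up to 4 called genes of each list, largest first, of which the text leaves some out, and the 2 most similar genes of each member. Arrays of the same number in compared groups correlated after removal of group means (r from 0.156 to 0.847), so the numbers pair arrays. The fit with the number as a block is given where it changes a call of a member, for some other changes and for some counts of list genes. Other list counts moved under it too. For hypertonic medium in WT the called Wnt genes went from 1 to 7 of 61, beside 1295 and 2360 of 15711 genes. That pairing comes from the data, not the labels. In simulated data for the hypertonic effect in WT (15711 genes), 81 of 100 genes changed by 1 log2 were recovered. Of 100 changed by 2, 97 were recovered, and 12 of 190 calls were false. The simulated noise was independent between arrays, without effects of array number or line, so these rates check the code and do not describe these data. Alternatives were other filters, probe set averaging, quantile normalization, median centring, another prior, fits on the compared groups, the block, isotonic KO array 1 as WT and each array left out. Removal of number 4 and all alternatives for lists were chosen after seeing the data. With 3 arrays per group, their number limits the precision.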

Additional observations from a re-analysis of the deposited data

Results flagged for a closer look

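Among the listed pathway genes, 5 differed between the lines in their response to hypertonic medium by the limma test of the difference itself (KO effect minus WT effect). None of them is one of the 9 antagonists. The difference was 1.24 for the ligand Bmp2, 1.06 for the R-spondin receptor Lgr5, 0.77 for the scaffold Axin1, 0.70 for the BMP receptor Bmpr1a and -0.75 for the Wnt receptor Ror1. The limma adjusted p was 0.0086 for Bmp2, 0.00977 for Axin1, 0.0112 for Bmpr1a, 0.0279 for Ror1 and 0.0481 for Lgr5. Axin1 kept its call under all 28 alternatives. Bmp2 (limma adjusted p = 0.504) and Bmpr1a (0.242) lost theirs where isotonic KO array 1 was counted as WT. Ror1 kept its call under 20 alternatives and Lgr5 under 11 of the 28. With the array number as a block more genes passed: 6 of 61 Wnt genes, 4 of 37 BMP genes and 1 of 17 other secreted antagonists. That last gene was Fstl3 (0.54, limma adjusted p = 0.0233). Of all 15711 genes 2280 were called in that fit. Without isotonic KO array 1 the difference was 1.33 for Bmp2 (limma adjusted p = 0.0145), 1.22 for Lgr5 (0.0403), 0.75 for Axin1 (0.0266), 0.62 for Bmpr1a (0.0334) and -0.66 for Ror1 (0.0759).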

How the results depend on the processing

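For the 9 members in the 9 contrasts, 81 results were recomputed under up to 28 alternatives. Of 2241 comparisons 2224 kept their side of the threshold, 10 lost a call and 7 gained one. The direction of a called change reversed in 0, and 70 of the 81 results kept their side of the threshold throughout. With the replicate block 1 of 9 members was called for hypertonic medium in WT with Torin1, and without all arrays of number 4 there was 1 there and 1 for hypertonic medium in KO. With isotonic KO array 1 counted as WT 0 of 9 were called for KO minus WT in isotonic medium, where Grem1 was at -4.43 (limma adjusted p = 0.133) and Sfrp2 at 4.15 (0.137). Under that setting the KO minus WT difference of the hypertonic effect of Ror1, -0.75, reversed to 0.02 (limma adjusted p = 0.996). With 1 array left out in turn, 6 to 7 members were called for KO minus WT in isotonic medium, 7 in hypertonic medium and 0 in every other contrast.

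Counts over all genes moved more. Fitting only the compared groups gave 267 calls for hypertonic medium in WT (1295 in the full fit), 23 in WT with Torin1 (530) and 0 for Torin1 in hypertonic WT (18). The replicate block gave 2360, 1235 and 220 there, and 2280 for the KO difference of the hypertonic effect. Without all arrays of number 4 they were 3335, 1555, 748 and 2804, with 3810 for KO minus WT in isotonic medium (2298) and 1 for the Torin1 difference (0). Counting isotonic KO array 1 as WT gave 315, 1, 0 and 764 for hypertonic medium in WT with Torin1, Torin1 in hypertonic WT, KO minus WT in isotonic medium and the KO difference of the hypertonic effect. With 1 array left out the count ranged from 534 to 1836 for hypertonic medium in WT, 161 to 675 in WT with Torin1, 0 to 148 for Torin1 in hypertonic WT, 0 to 25 for Torin1 in isotonic WT and 832 to 1745 for the KO difference. The cause of these shifts was not tested. Besides Nog in both line comparisons and Sfrp1, the replicate block changed no call of a member.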
